A study of Macaca fascicularis with 34 samples.

Results

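NANOS3, DND1, CPEB1, ELAVL2, DAZL and DDX4 encode RNA-binding proteins of germ cells. They were taken by name, through their human gene symbols, from a table of expression in single cells of the cynomolgus monkey (Macaca fascicularis), where they are 6 of 28551 genes. NANOS3 is listed on chromosome 19, DND1 and DDX4 on chromosome 6, CPEB1 on chromosome 7, ELAVL2 on chromosome 15 and DAZL on chromosome 2. Their gene IDs are 102133760 for NANOS3, 102118751 for DND1, 101925204 for CPEB1, 101865983 for ELAVL2, 102121570 for DAZL and 101867046 for DDX4. The table names CPEB1 LOC101925204 and ELAVL2 LOC101865983 among its own symbols.

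Germ cells control much of their gene expression after transcription, through proteins that bind messenger RNAs and decide whether these are stored, translated or degraded. NANOS3 and DND1 are needed for the survival of primordial germ cells, from which eggs and sperm derive, in the mouse. CPEB1 and ELAVL2 bind elements in the untranslated ends of messenger RNAs, while DAZL and DDX4 are classical genes of germ cells that have entered the gonad.

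The study sampled single cells around the time when primordial germ cells appear in the embryo and again after they have entered the gonad. The gonad samples were 9 cells of male gonads, with 6 cells at embryonic day (E) 36, 1 at E47 and 2 at E55. The embryo samples were 25 cells, with 3 at E13, 1 at E14, 11 at E16, 2 at E17 and 8 at E20. All came from the subspecies fascicularis. The labels name no treatment, no altered allele, no animal and no cell type, and they give a sex for the gonads alone. Each stage therefore counted as 1 sample: values below carry the spread between cells, no difference was tested, and cells of a stage may come from the same animal.

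The method, SC3-seq, amplifies the complementary DNA of 1 cell and reads the 3′ ends of transcripts. Levels are in RPM, which expresses the reads of a gene per library of fixed size, and the reads behind them were recovered from the table at depths of 472189 to 3556596 per cell. A gene was counted as detected in a cell at 15 RPM, which corresponds to 7.08 reads in the shallowest and 53.3 reads in the deepest cell. The titles carry codes that largely track the stage. MS11 marks all gonad cells and both E17 cells, MS08 marks E20 cells 1 to 7, MS09 marks the E16 cells together with E20 cell 8, and MS10 and MS13 mark E13 and E14. What these codes stand for is not given in the labels.

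Cell identity was checked with the 6 members left out. Clustering gave 26 cells in cluster 1 and 8 in cluster 2. Cluster 1 held all gonad cells and 17 embryo cells, and cluster 2 held E16 cell 8 and E20 cells 1 to 7. Germ cell markers such as SOX17 and TFAP2C, transcription factors of primordial germ cells, had a median of at least 15 RPM for 10 of 10 genes in gonad cells, 9 of 10 in cluster 1 embryo cells and 5 of 10 in cluster 2. Mesoderm markers such as PDGFRA and HAND1 reached that median for 0 of 10 genes in gonad cells, 2 of 10 in cluster 1 embryo cells and 9 of 10 in cluster 2. The summed level of the mesoderm markers was 1389 to 14965 RPM in cluster 2 and 7.47 to 1049 RPM in cluster 1 embryo cells. With 500 genes clustered, E17 cell 2 and E14 cell 1, which held that 1049 RPM, moved to cluster 2. With 2000 genes E17 cell 2 alone moved. No cluster was given a cell type name, because the genes that led cluster 1 by fold were INSL3 and CYP17A1, genes of steroid-producing cells of the testis, at high level in the E47 cell.

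The members separated into genes present from the first embryo stage and genes present in the gonad. NANOS3, DND1, CPEB1 and ELAVL2 reached 15 RPM in at least 50% of the cells of E13 and of E17, and DND1, CPEB1 and ELAVL2 also of E16. DND1 alone did so at E20, by listed reads that were partly shared out with the neighbouring gene HARS, as described below. In E20 cells 1, 3 and 6, counted as holding DND1, HARS stood higher than DND1, at 39.3, 69.1 and 49.7 RPM. DAZL and DDX4 reached 15 RPM in 0 of 25 embryo cells, which allows a share of up to 12.0%, while DAZL did so in 6 of 9 gonad cells (66.7%, exact binomial 95% interval 29.9 to 92.5%) and DDX4 in 7 of 9 (77.8%, 40.0 to 97.2%). These onset classes describe the sampled stages and leave the days between E20 and E36 unobserved.

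**Figure D1:**
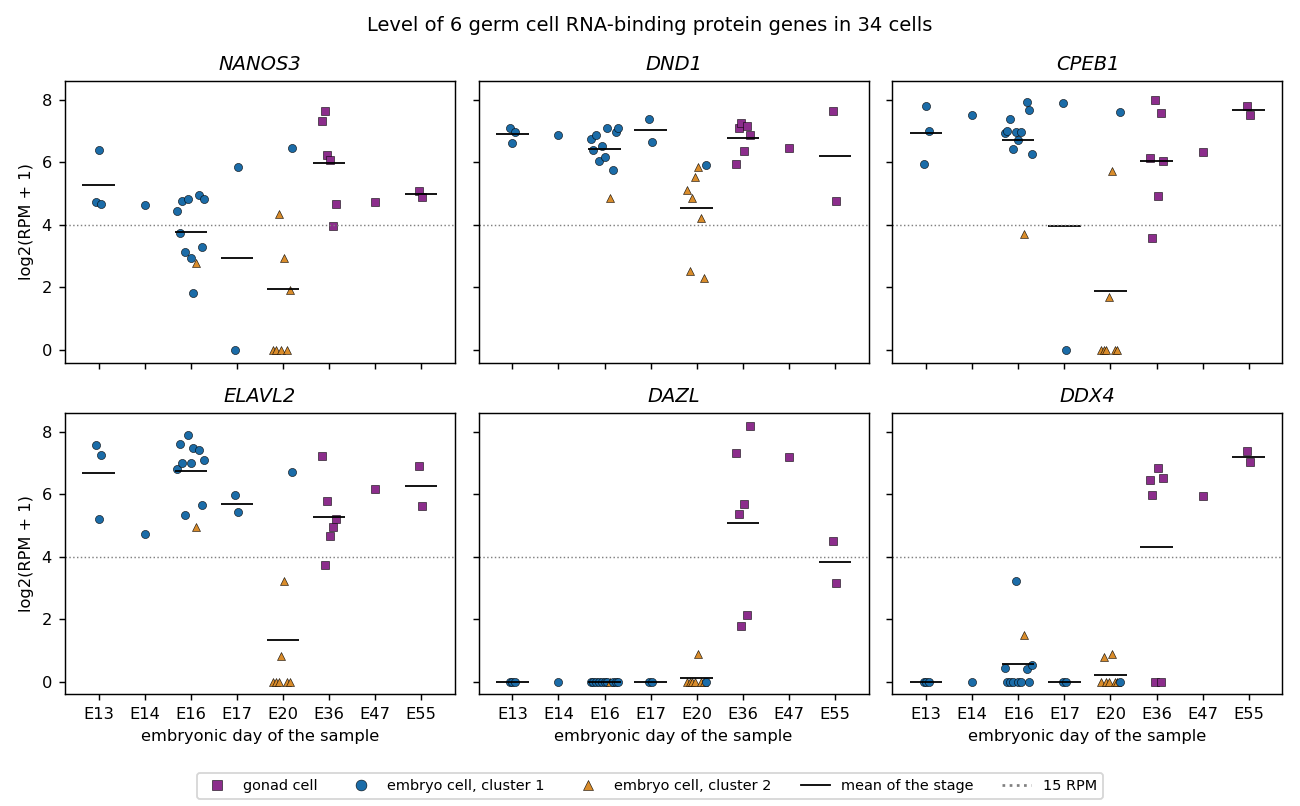
Level of each member, as log2(RPM + 1), in each of 34 cells by embryonic day. Points are cells, squares gonad, circles and triangles embryo cells of cluster 1 and cluster 2, bars the stage mean and the dotted line 15 RPM. NANOS3, DND1, CPEB1 and ELAVL2 have cells above the line from E13 on, and DAZL and DDX4 have cells above it at E36, E47 and E55.

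NANOS3, a zinc-finger protein that acts with PUMILIO proteins and recruits the deadenylase complex CCR4-NOT, was present in embryo and gonad. Its mean was higher in gonad cells. NANOS3 stood at 25.4, 83.8 and 24.6 RPM in the E13 cells and at 23.8 RPM at E14. The E16 range was 2.54 to 30.1 RPM with a median of 12.2, and the E17 cells held 0 and 56.8 RPM. Every E16 cell held reads of NANOS3, and 5 of 11 reached 15 RPM. At E20 it ran from 0 to 87.8 RPM with a median of 1.4, and at E36 from 14.6 to 198 RPM with a median of 70.9. The E47 cell held 25.4 RPM, and the E55 cells held 32.8 and 28.97 RPM. Gonad and embryo cells overlapped, but all gonad cells stood at or above 14.6 RPM, while 5 embryo cells held no read.

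NANOS3 averaged 69.4 ± 65.6 RPM in the gonad and 20.3 ± 24.0 RPM in the embryo (SD, n = 9 and 25). The mean log2(RPM + 1) was 2.29 higher in gonad cells. Against the 17 cluster 1 embryo cells alone, at 27.8 ± 25.6 RPM, it was 1.42 higher. The medians were closer, at 32.8 RPM in gonad cells and 24.6 RPM in these embryo cells. The E47 and E55 cells, at 25.4 to 32.8 RPM, lay within the range of these embryo cells. NANOS3 reached 15 RPM in 8 of 9 gonad cells (88.9%, exact binomial 95% interval 51.8 to 99.7%) and 12 of 25 embryo cells (48%, 27.8 to 68.7%). In order of their means the stages ran E36, E13, E55, E17, E47, E14, E16 and E20, from 89.6 to 14.6 RPM. No neighbouring pair in that order with a spread was apart by more than the larger SD.

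DND1, a partner of NANOS proteins in mouse germ cells that also binds messenger RNAs near microRNA sites, was the member found most widely. Each cell held reads of it, and 32 of 34 reached 15 RPM. These counts take its reads as listed, part of them shared out with HARS as described below. It stood at 137.7, 98.4 and 124 RPM at E13, 116 RPM at E14, and 167 and 100.1 RPM at E17. At E16 it ran from 28.2 to 137.9 RPM with a median of 90.8. The lowest of the E16 cells was cell 8, which lay in cluster 2. At E20 it ran from 3.90 to 58.9 RPM with a median of 30.8, and at E36 from 61.2 to 154 RPM with a median of 127.5. The E47 cell held 86.9 RPM, and the E55 cells held 201 and 26.2 RPM.

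DND1 averaged 112 ± 53.4 RPM in the gonad and 80.3 ± 46.4 RPM in the embryo, a difference of 0.69 in mean log2(RPM + 1). Against cluster 1 embryo cells, at 105 ± 31.9 RPM, the difference was -0.03, well inside the spread between cells. The 8 cells of cluster 2 were lower, at 27.4 ± 18.6 RPM. In the order of stage means, from 133.8 RPM at E17 to 31.3 RPM at E20, only E47 and E20 were neighbours apart by more than the larger SD. E47 is 1 cell without an SD, so the SD used was that of E20.

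The DND1 values carry an uncertainty that the other members do not. Recovered reads of DND1 lay over 0.1 read from a whole number in 19 of 34 cells. For each of the other members this was 0 cells. HARS, the gene for histidyl-tRNA synthetase beside DND1 on chromosome 6, was not whole by this limit in the same 19 cells. Fractions under 0.1 read that matched between both genes were seen in E16 cells 4, 6, 8 and 11 and E20 cells 3 and 6. They ran from 0.0185 to 0.0871 read for DND1, so 19 cells is a lower count. The sum of DND1 and HARS was whole, within 0.1 read, in 34 of 34 cells, and the most for any other gene was 16. Reads were thus shared out between this pair in the table, and how many of those given to DND1 came from HARS was not tested. HARS averaged 27.9 ± 28.9 RPM in the gonad and 43.6 ± 49.7 RPM in the embryo, and reached 71.9 ± 75.5 RPM in cluster 2. The sum of both genes averaged 140.2 ± 55.1 RPM in gonad cells, 135 ± 43.0 RPM in cluster 1 embryo cells and 99.4 ± 61.6 RPM in cluster 2.

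CPEB1 binds a short uridine-rich element in messenger RNAs and controls their polyadenylation in the cytoplasm. It stood at 61.4, 224 and 127.7 RPM at E13 and at 183.5 RPM at E14. At E16 it ran from 12.1 to 244 RPM with a median of 125. The E17 cells differed, at 239 and 0 RPM. At E20 it ran from 0 to 193 RPM with a median of 0, since 5 of 8 cells held no read. At E36 it ran from 11.1 to 253 RPM with a median of 67.7, and the E47 cell held 79.8 RPM. Both E55 cells were high, at 223 and 183 RPM.

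CPEB1 averaged 123 ± 89.5 RPM in the gonad and 99.1 ± 84.6 RPM in the embryo. Its mean log2(RPM + 1) was 1.43 higher in gonad cells, but the sign was not the same over every choice of embryo cells. Against cluster 1 embryo cells, at 141.9 ± 67.1 RPM, the difference was -0.28, less than the spread between cells. Without the E20 cells it was -0.048, and by medians over all embryo cells -0.38, while against the 2 E17 cells it was 2.49. CPEB1 reached 15 RPM in 8 of 9 gonad cells, 16 of 17 cluster 1 embryo cells and 1 of 8 cells of cluster 2. No neighbouring stages in the order of means, from 203 RPM at E55 to 30.9 RPM at E20, were apart by more than the larger SD.

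ELAVL2, a member of the Hu family that binds uridine-rich and AU-rich elements, had a lower mean in gonad cells than in cluster 1 embryo cells. It stood at 188.5, 36.1 and 150.7 RPM at E13, 25.5 RPM at E14, and 61.6 and 41.8 RPM at E17. At E16 it ran from 29.98 to 237 RPM with a median of 127. At E20 it ran from 0 to 105 RPM with a median of 0, and 5 of 8 cells held no read. At E36 it ran from 12.3 to 148 RPM with a median of 32.9, the E47 cell held 70.7 RPM, and the E55 cells held 119.9 and 48.5 RPM. The gonad cells lay within the range of the embryo cells.

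ELAVL2 averaged 60.6 ± 45.7 RPM in gonad cells, against 116.5 ± 65.4 RPM in the 17 cluster 1 embryo cells, a difference of -1.01 in mean log2(RPM + 1). That is about the size of the spread between cells, with an SD of 1.10 in gonad and 0.995 in these embryo cells on that scale. Of the measured genes, 13.7% were lower still. Against all embryo cells, at 80.8 ± 75.6 RPM, the difference in mean log2(RPM + 1) was 0.74, while the mean RPM was lower in gonad cells. Scale and choice of cells thus decided the direction for this gene. The gonadal difference from cluster 1 embryo cells was -1.33 over the 5 gonad cells with fewer than 3 markers of gonadal somatic cells at 15 RPM. E47 and E17, at 70.7 and 51.7 RPM, were the only neighbours in the order of stage means apart by more than the larger SD. E47 is 1 cell without an SD, so the SD used was that of the 2 E17 cells.

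DAZL, which binds messenger RNAs and promotes their translation in germ cells of the gonad, was found almost wholly in gonad cells. The E36 cells held 2.45 to 293 RPM with a median of 45.7, the E47 cell 146 RPM, and the E55 cells 21.5 and 7.97 RPM. All 9 gonad cells held reads of DAZL. In the embryo, E13, E14, E16 and E17 held 0 reads, which allows up to 1.58 RPM at E13, 1.299 at E14, 0.111 at E16 and 0.548 at E17. A single read was counted in E20 cell 5, corresponding to 0.843 RPM. The cells of the 2 groups did not overlap, as was so for 0.00656% of 15245 measured genes, DAZL alone.

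DAZL was 5.01 higher in mean log2(RPM + 1) in gonad cells, the largest difference of 15245 measured genes. Summed over cells, it had 1010 reads in gonad cells, or 66.6 RPM (exact Poisson 95% interval 62.6 to 70.9), and 1 read in embryo cells, or 0.0204 RPM. The ratio was 3263 with a counting interval of 584 to 129001. Such intervals, and the limits for 0 reads, cover counting error only, since the reads carry no molecular identifiers. Among gonad cells DAZL varied by a coefficient of variation of 123%, where counting alone would give 8.58%. DAZ, a near-identical copy of DAZL on the Y chromosome of Old World monkeys and humans, was not analysed here, and any reads of it placed with DAZL could not be told apart.

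DDX4, the VASA RNA helicase of germ granules, was found in most gonad cells and near 0 in the embryo. The E36 cells held 0 to 114 RPM with a median of 75.1, and 2 of the 6, cells 3 and 5, held no read. The E47 cell held 60.8 RPM, and the E55 cells were the highest, at 168 and 129 RPM. Embryo cells of E13, E14 and E17 held 0 reads, E16 cells 0 to 8.35 RPM and E20 cells 0 to 0.843 RPM, with a median of 0 in both. The lowest gonad cells therefore overlapped with the embryo cells, while the other 7 gonad cells stood above all of them.

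DDX4 averaged 79.1 ± 55.8 RPM in the gonad and 0.514 ± 1.68 RPM in the embryo, and its difference of 4.82 in mean log2(RPM + 1) was exceeded by 1 measured gene, DAZL. Summed over cells, gonad cells held 1047 reads, or 69.1 RPM (65.0 to 73.4), and embryo cells 29 reads, or 0.592 RPM (0.397 to 0.851). The ratio was 117 (80.7 to 175). Of the 29 embryo reads, 20 came from E16 cell 5, and without that cell the ratio was 357. In the order of stage means, E55 was above E47 and E36 above E16 by more than the larger SD, and the other neighbours were not. E47 is 1 cell without an SD, so for E55 and E47 the SD used was that of the 2 E55 cells.

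Of the 6 members, 4 stood higher in the gonad by 2-fold or more and 0 stood lower by as much. A gene counted as measured when either group averaged 1 RPM or more, and of 15245 such genes 7.62% were higher in the gonad by that much and 15.1% lower. Among the 4, CPEB1 did not stay higher against cluster 1 embryo cells. Against cluster 1 embryo cells 3 members were at least 2-fold higher in mean log2(RPM + 1), namely NANOS3, DAZL and DDX4. ELAVL2 was lower, while 9.01% of 14813 measured genes were higher and 14% lower. A level of 15 RPM in at least 6 gonad cells and in no embryo cell was found for 4 of 14603 genes (0.0274%). These were DAZL, DDX4, OLFM4, a secreted glycoprotein named here because it met this count, and 1 gene without a symbol. The cutoff of 6 gonad cells equals the count of DAZL itself. DAZL and DDX4 were therefore bound to meet it, and the share adds no evidence about them.

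**Figure D2:**
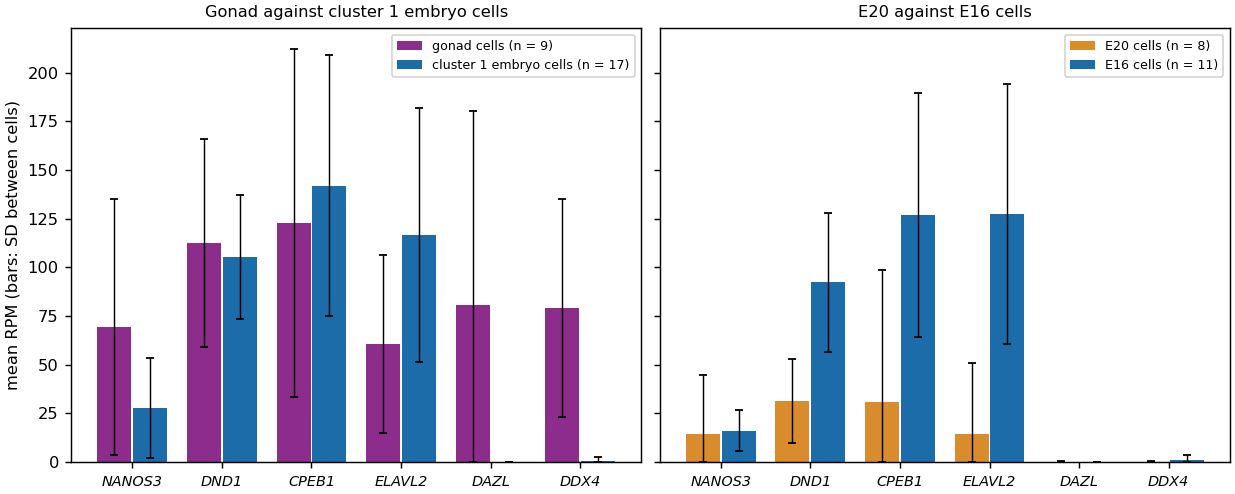
Mean RPM of each member in 9 gonad and 17 cluster 1 embryo cells (left) and in 8 E20 and 11 E16 cells (right). Bars are means and error lines the SD between cells, drawn down to 0 at most. NANOS3, DAZL and DDX4 are higher and ELAVL2 lower in gonad cells (left), and DND1, as listed without the reads given to HARS, CPEB1 and ELAVL2 are lower in E20 cells (right).

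Markers of gonadal somatic cells, such as WT1, STAR and AMH, moved with the gonad samples. Their summed level was 14.3 to 20250 RPM in gonad cells and 2.50 to 66.8 RPM in cluster 1 embryo cells. At least 3 of 11 such markers reached 15 RPM in 4 gonad cells, E36 cells 1 and 5, E47 and E55 cell 2, and their part in the results was not tested in these. In the other 5 gonad cells the summed level was 14.3 to 100.3 RPM. There 3 of the 11 markers, WT1, STAR and AMH, were at 0 in each cell, and 4 reached 15 RPM in at least 1 cell. SOX9 stood at 84.3 RPM in E36 cell 4 and 48.2 RPM in E36 cell 6, TCF21 at 62.6 and LHX9 at 35.7 RPM in E36 cell 3, and NR5A1 at 24.7 RPM in E36 cell 6. Over those 5 cells DAZL reached 15 RPM in 4, with 81.7 ± 119.5 RPM, and DDX4 in 4, with 87.0 ± 62.2 RPM. NANOS3 was detected in all 5, with 79.5 ± 69.8 RPM.

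The gonad cells share a label code with the E17 cells, which gives a comparison within 1 code. There DAZL was 5.04 higher in gonad cells, DDX4 5.13 and NANOS3 2.70 in mean log2(RPM + 1). CPEB1 was 2.49 higher, and E17 cell 2 held none of it. NANOS3 had no read in E17 cell 1, while E17 cell 2, at 56.8 RPM, lay within the gonad range of 14.6 to 198 RPM. DND1 (-0.40) and ELAVL2 (-0.10) differed by less than 2-fold. These values rest on 2 E17 cells, and E17 cell 2 moved to cluster 2 when 500 or 2000 genes were clustered.

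The 4 members with embryo onset were compared between E20 and E16, which have more cells than the other embryo stages. In mean log2(RPM + 1) all 4 were at least 2-fold lower at E20, where 18.9% of 14998 measured genes were lower and 13.9% higher. CPEB1 averaged 30.9 ± 68.0 RPM at E20 and 127 ± 62.5 RPM at E16, a difference of -4.86 in mean log2(RPM + 1). ELAVL2 averaged 14.2 ± 36.7 RPM at E20 and 127 ± 66.9 RPM at E16, a difference of -5.41, and 4 of the measured genes were lower still. For both genes 5 of 8 E20 cells held no read, while each E16 cell held some. DND1 averaged 31.3 ± 21.7 RPM at E20 and 92.2 ± 35.8 RPM at E16, a difference of -1.88. HARS, which shares reads with DND1, averaged 67.3 ± 78.0 RPM at E20 and 31.98 ± 28.7 RPM at E16. The sum of both genes averaged 98.5 ± 61.9 RPM at E20 and 124.2 ± 42.5 RPM at E16, a difference of -0.41, so the 2-fold call for DND1 was not kept with the reads summed. NANOS3 had close means, 14.6 ± 30.3 RPM at E20 and 16.02 ± 10.5 RPM at E16, with a difference of -1.82 on the log scale, and 4 of 8 E20 cells held no read. Its call rests on that scale, since the log2 ratio of the means was -0.13 and a pseudocount of 10 RPM gave -0.52. Summed over cells, NANOS3 stood at 22.98 RPM at E20 and 17.2 RPM at E16, a ratio of 1.34 (1.15 to 1.55). DDX4 differed by -0.34, with 2 reads at E20 and 27 at E16, and DAZL, with 1 read at E20 and 0 at E16, was below the level counted as measured.

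A single cell held most of the E20 reads. E20 cell 8, which carries the code of the E16 cells and lay in cluster 1, had 238 of 279 reads of NANOS3, 524 of 588 of CPEB1, 284 of 295 of ELAVL2 and 160 of 418 of DND1. Over the other E20 cells the summed level was 4.35 RPM for NANOS3, 6.79 for CPEB1, 1.17 for ELAVL2 and 27.4 for DND1. Among these, E20 cell 5 held the most CPEB1, at 51.4 RPM, and ELAVL2, at 8.43 RPM, and E20 cell 3 the most NANOS3, at 19.2 RPM.

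The 7 cluster 2 cells of E20 were also set against the 10 cluster 1 cells of E16. CPEB1 (-5.98) and ELAVL2 (-6.36) did not overlap between these cells, as was so for 1.35% of 14867 measured genes. ELAVL2 averaged 1.31 ± 3.15 RPM in cluster 2 at E20 and 137 ± 61.8 RPM in cluster 1 at E16. NANOS3 (-2.56) and DND1 (-2.22) overlapped. All 4 were at least 2-fold lower in these E20 cells, against 18.3% of the measured genes. The sum of DND1 and HARS averaged 102 ± 66.0 RPM in these E20 cells and 129 ± 42.1 RPM in these E16 cells. Mesoderm markers moved with this contrast: 9 of 10 were at least 2-fold higher at E20 and 10 of 10 germ cell markers lower. Their part in the result was not tested. Stage, label code and cluster change together between these cells and cannot be told apart.

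Co-detection was read per cell at 15 RPM. The number of members per cell ran from 3 to 6 in gonad cells with a median of 6, from 3 to 4 in cluster 1 embryo cells with a median of 4, and from 0 to 2 in cluster 2 with a median of 1. All 4 embryo-onset members were found together in 7 of 9 gonad cells (77.8%, exact binomial interval 40.0 to 97.2%) and in 10 of 17 cluster 1 embryo cells (58.8%, 32.9 to 81.6%). In cluster 2 this was 0 of 8 cells, which allows a share of up to 37.5%. Among the 7 cluster 1 embryo cells without all 4 the missing gene was NANOS3 in 6 and CPEB1 in E17 cell 2.

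All 6 members were found in 5 gonad cells, E36 cells 1, 4 and 6, the E47 cell and E55 cell 1. Of these, E36 cell 1 and the E47 cell held at least 3 gonadal somatic markers at 15 RPM. DAZL and DDX4 were found together in 6 gonad cells, DAZL never without DDX4, and DDX4 without DAZL in E55 cell 2, where DAZL stood at 7.97 RPM. Each cell with NANOS3, CPEB1 or ELAVL2 also had DND1, by its listed reads, some of which were shared out with HARS. CPEB1 and ELAVL2 were found together in 24 cells, CPEB1 without ELAVL2 in E20 cell 5, and ELAVL2 without CPEB1 in E16 cell 8 and E17 cell 2. No member reached 15 RPM in E20 cells 2 and 7.

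**Figure D3:**
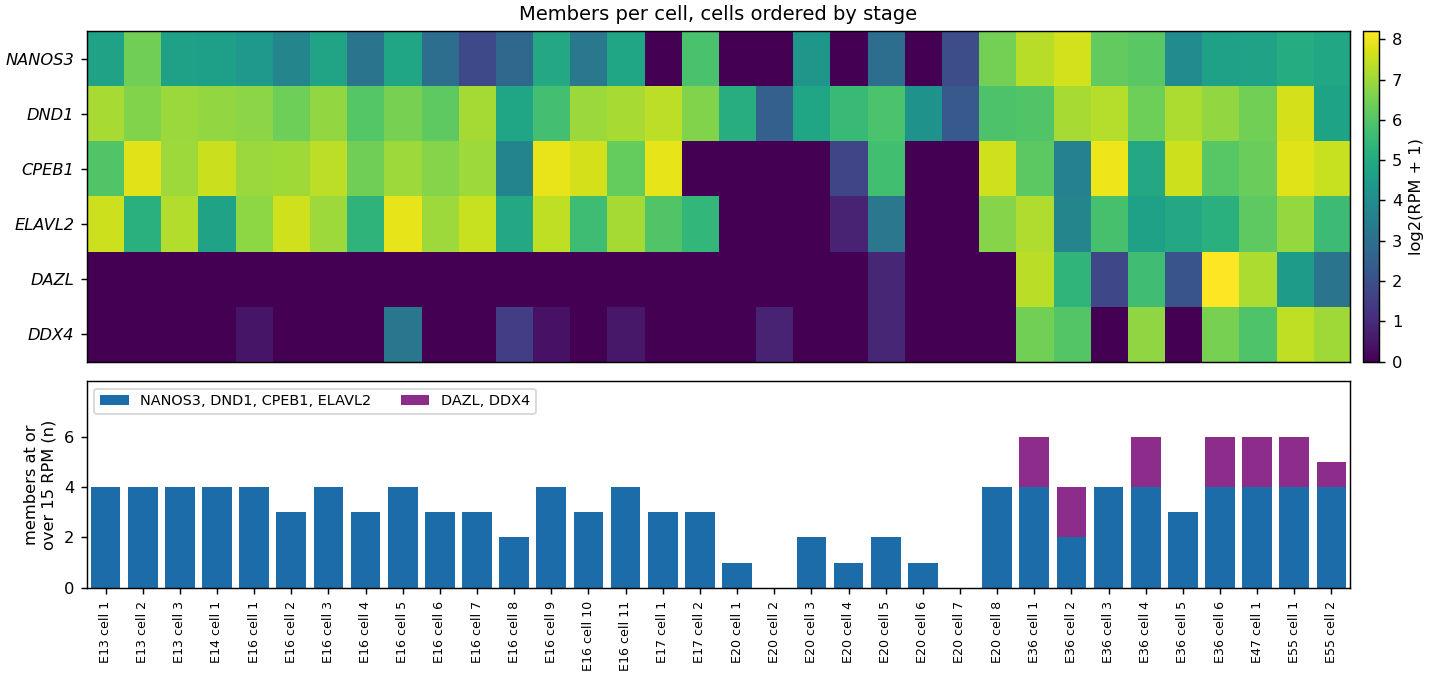
Upper panel, log2(RPM + 1) of the 6 members (rows) in 34 cells (columns, by stage). Lower panel, the number of members at or over 15 RPM in each cell, split into embryo-onset and gonad-onset genes. The 5 cells with all 6 members are E36 cells 1, 4 and 6, the E47 cell and E55 cell 1.

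The E36 cells were not alike. Cells 3 and 5 held 2.45 and 3.40 RPM of DAZL and no read of DDX4, with CPEB1 at 253 and 189 RPM. The other 4 E36 cells held 40.6 to 293 RPM of DAZL and 62.8 to 114 RPM of DDX4, with CPEB1 at 11.1 to 69.8 RPM. NANOS3 did not separate them: it stood at 74.4 RPM in cell 3, 14.6 RPM in cell 5 and 24.7 to 198 RPM in the other 4. These cells were picked out after their values were seen, and the split rests on the members' own values. The contrast is therefore description only. Both E55 cells held CPEB1 and DDX4 at high level together. Cell 3 held 10 of 10 and cell 5 held 9 of 10 germ cell markers at 15 RPM, and their gonadal somatic markers summed to 100.3 and 832 RPM.

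**Figure D4:**
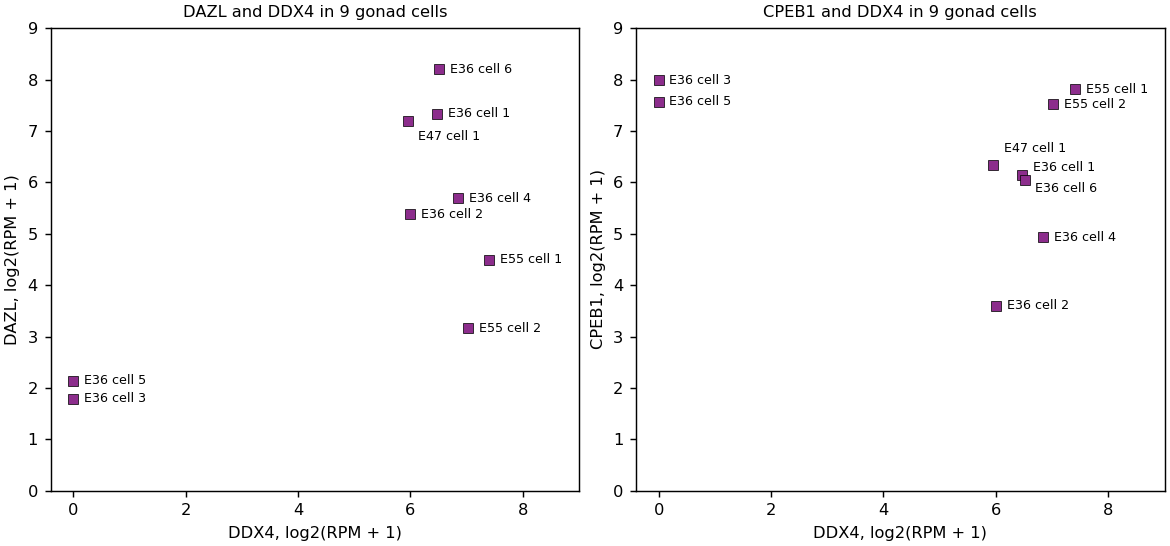
DAZL (left) and CPEB1 (right) against DDX4 in the 9 gonad cells, each axis log2(RPM + 1). E36 cells 3 and 5 hold no DDX4, the lowest DAZL and high CPEB1, and both E55 cells hold DDX4 and CPEB1 at high level.

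Across the 34 cells, correlations of log2(RPM + 1) were highest for DAZL and DDX4 (Pearson r = 0.89), CPEB1 and ELAVL2 (0.84) and DND1 and ELAVL2 (0.72). The cells share label codes and depth, and 24 of them held no DAZL read, so these values describe the cells and carry no test. Within the 26 cells of cluster 1, DAZL and DDX4 stood at 0.89, CPEB1 and ELAVL2 at 0.31, and DND1 and ELAVL2 at -0.07. Within the 9 gonad cells DAZL and DDX4 stood at 0.68. For NANOS3 the highest value across the 34 cells was 0.551, with ELAVL2, and within cluster 1 this pair stood at -0.23.

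The genes most like each member in the 34 cells were taken among 9590 genes with a symbol that reached 15 RPM in at least 5 cells. These correlations span both clusters, and no such list was taken within cluster 1 alone. For DAZL and DDX4 each was the gene most like the other. MAGEA6, MAGEA3 and GDI2, which binds Rab proteins, were also among the 5 most like DAZL, with a Pearson correlation of 0.686 for MAGEA6. MAGEA6, MAGEA3 and PAGE2B were also among the 5 most like DDX4, with a correlation of 0.812 for MAGEA6. MAGEA6 and MAGEA3 are near-identical testis antigen genes, between which reads are uncertain.

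For ELAVL2 and CPEB1 the lists held NANOG, the pluripotency factor, SOX15, NLRP2 and ABCG1, a lipid transporter, with r of 0.88 for ELAVL2 and NANOG and 0.87 for CPEB1 and ABCG1. TRANK1, PCP4L1, PPARA, SOX15 and NANOG were most like DND1, with TRANK1 at 0.86. CNDP2, LOC100652917, RPL39L, RRP9 and MALT1 were most like NANOS3, with CNDP2, a peptidase, at 0.73.

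Relatives and partners of the members were summarised by list, each with the number of genes at least 2-fold higher or lower in gonad cells and the median difference, beside a median of -0.17 over all measured genes, of which 7.62% were higher and 15.1% lower. Of 21 measured Tudor, PIWI and nuage genes, the partners of DDX4 in the piRNA pathway, 9 were higher and 3 lower, with a median of 0.68. GTSF1, a piRNA pathway factor, averaged 98.3 ± 70.1 RPM in the gonad and 14.7 ± 33.2 RPM in the embryo, a difference of 4.10. RNF17, a Tudor protein of germ cells, averaged 27.3 ± 33.0 RPM in the gonad and 3.69 ± 17.8 RPM in the embryo. TDRKH, a Tudor protein of mitochondria, averaged 52.5 ± 35.2 RPM in the gonad and 14.1 ± 16.6 RPM in the embryo, and PIWIL2, a PIWI protein, 71.9 ± 62.1 RPM in gonad and 34.4 ± 51.7 RPM in embryo cells. Against cluster 1 embryo cells 6 of 21 were higher and 3 lower, with a median of 0.71, beside 9.01% and 14% of all measured genes. Over the 5 gonad cells with fewer than 3 gonadal somatic markers, against the same embryo cells, 8 of 20 were higher and 5 lower, with a median of 0.22. Between E20 and E16, 1 of 21 was higher and 11 lower, beside 13.9% and 18.9% of all measured genes, and the median was -1.15. PIWIL2 averaged 5.34 ± 7.55 RPM at E20 and 56.2 ± 69.5 RPM at E16. Between these stages 10 of 10 germ cell markers were also lower at E20 and 9 of 10 mesoderm markers higher. Stage, label code and cluster largely changed together there, and their part in these values was not tested.

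Of 19 genes of PUMILIO and deadenylation, the machinery NANOS3 and DND1 engage, 2 were higher in gonad cells and 2 lower, with a median of -0.09, beside 7.62% and 15.1% of all measured genes. CNOT6L (1.67) and PAN3, at 49.2 ± 30.7 RPM in gonad and 35.6 ± 36.9 RPM in embryo cells, were higher, and CNOT6 (-1.30) and BTG1 (-1.26), which binds the deadenylase, were lower. Of 15 genes of cytoplasmic polyadenylation and poly(A) binding, 2 were higher and 1 lower, with a median of 0.28. CPSF2, a polyadenylation factor, averaged 56.6 ± 21.8 RPM in the gonad and 34.1 ± 45.3 RPM in the embryo. AURKA, a mitotic kinase that phosphorylates CPEB1 in frog oocytes, averaged 21.3 ± 25.7 RPM in the gonad and 84.3 ± 94.7 RPM in the embryo, a difference of -2.43. PAIP1 (1.08) and PABPC3 (0.93) bind poly(A)-binding protein or poly(A).

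Of 17 P-body genes, which store or decap messenger RNAs, 1 was higher and 3 lower in the gonad, and the median was -0.10. Beside this and the next list stand 7.62% of all measured genes higher and 15.1% lower. TNRC6C stood at a difference of 1.4, TNRC6B at -1.02, DCP2, the decapping enzyme, at -0.90 and LSM1 at 0.81. Of 22 other RNA-binding proteins of germ and stem cells, 0 were higher and 1 lower, with a median of -0.16. The lower gene was DPPA5 (-1.45), and LIN28A, which blocks let-7 microRNAs, averaged 404 ± 142 RPM in the gonad and 610.0 ± 241 RPM in the embryo, a difference of -0.57. KHDRBS1 (-0.50) and TIA1 (-0.49) differed by less than 2-fold.

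Of 7 messenger RNAs described in mouse, human or frog cells as bound by a member, 0 were higher in gonad cells and 2 lower. The median was 0.03, and of all measured genes 7.62% were higher and 15.1% lower. CCNB1, the mitotic cyclin B1, averaged 65.4 ± 72.3 RPM in the gonad and 235 ± 284 RPM in the embryo, a difference of -2.05. CDK1, its kinase, averaged 55.4 ± 57.5 RPM in the gonad and 121 ± 123 RPM in the embryo. CDKN1B, a cell cycle inhibitor, differed by 0.82, and SYCP3, a protein of the meiotic chromosome axis, by 0.58.

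Of 9 measured family relatives, 2 were higher in gonad cells and 1 lower, with a median of 0.00, beside 7.62% and 15.1% of all measured genes. RBM46 (1.38) was higher, RBM47 (0.87) and DDX3X (0.00) differed by less than 2-fold, and ELAVL1, the widely expressed Hu protein, was lower. ELAVL1 averaged 115 ± 86.4 RPM in the gonad and 199.9 ± 91.6 RPM in the embryo, a difference of -1.04, and it reached 15 RPM in each of the 34 cells. NANOS2 and BOLL, relatives of NANOS3 and DAZL known from later male germ cells, were listed at 0 in every cell.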

How the data were processed

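Single-cell libraries were made by cDNA amplification and SOLiD library construction, per the labels' protocols. Cutadapt 1.3, TopHat 1.4.1 and Cufflinks 2.2.0 are named, without a role, per the submitters' processing notes. For the genome build and annotation the sources used here give nothing. The authors deposited values on a log2 scale, log2(RPM + 1), found from the values: once back-transformed, low values in each cell were whole reads, within 0.1 read, for 99.7% to 100% of them. The median depth was 2001690 reads. Python 3.11.15, numpy 2.4.6, pandas 2.3.3 and scipy 1.17.1 were used.

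Differences are between means of log2(RPM + 1), which understates the change of low genes, and 2-fold is a difference of 1. The members and the 7 gene lists were chosen with earlier results of these data known. Named were all members, the 5 genes most correlated with each, and from each list up to 4 genes with the largest gonad difference among those averaging 15 RPM in 1 group. A gene among the most correlated is not reported here. Embryo onset needed 50% of the cells of a stage of 2 or more cells at 15 RPM. The 2 clusters used the 1000 most variable genes, average linkage and correlation distance. A planned cell type name was withheld. The Dixon outlier screen was applied to E20 and E36. No doublet caller was run, and no identical cells were found: the most similar pair had a correlation of 0.883. Genes were matched to another RefSeq assembly for names and neighbours, with 6 of 6 members found. No promoter or protein sequence was analysed here. The calculations were tested on simulated data.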

Additional observations from a re-analysis of the deposited data

Results flagged for a closer look

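The members were screened for cells lying apart in the stages with 6 or 8 cells, 12 gene and stage pairs in all for E20 and E36, by how far the outermost cell lay from its neighbour, as a share of the range. The cutoffs used flag about 1 in 20 such pairs by chance only if values follow a normal distribution. The RPM values screened were skewed, and for several members most E20 cells held no read. The chance rate is therefore not known here, and the 5 pairs marked cannot be read as an excess.

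E20 cell 8 stood apart from the other 7 E20 cells for 3 members, with NANOS3 at 87.8 RPM, CPEB1 at 193 RPM and ELAVL2 at 105 RPM. This cell shares its label code with the E16 cells and its cluster with the gonad cells. The other E20 cells held NANOS3 at 0 to 19.2 RPM, CPEB1 at 0 to 51.4 RPM and ELAVL2 at 0 to 8.43 RPM.

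E20 cell 5 was marked for DAZL at 0.843 RPM, which is 1 read beside 0 in the other cells. E36 cell 1 was marked for ELAVL2 at 148 RPM, where the other E36 cells held 12.3 to 54.8 RPM.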

How the results depend on the processing

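Of 505 values recomputed under another setting, 23 moved by more than 1 SD or 1.5 times. Another 5 reversed, and these were counted apart even where they moved by more than 1 SD. Of the 416 differences among the 505 values, 12 turned sign, those 5 of a main value of 2-fold or more and 7 of a smaller one. A further 7 lost the 2-fold call with the sign kept. For gonad minus embryo, ELAVL2 (0.74) turned to -1.01 within cluster 1, -0.91 without E20, -0.41 as a log2 ratio of mean RPM, -0.10 within code MS11 and -0.02 by medians, and DND1 (0.69) to -0.03 within cluster 1 and -0.40 within MS11. They reached 2-fold at 1.43 for ELAVL2 with a pseudocount of 0.1 RPM and 1.12 for DND1 without gonad cells with 3 or more somatic markers. CPEB1 reversed to -0.38 by medians, -0.28 within cluster 1 and -0.048 without E20, and was 0.67 with a pseudocount of 10 RPM and 0.30 as a log2 ratio. DAZL moved to 2.35 with a pseudocount of 10 RPM, 8.12 with 0.1 RPM and 6.30 as a log2 ratio of mean RPM. DDX4 moved to 2.59 and 6.76 with those pseudocounts and 6.47 by medians. For E20 minus E16, cluster 1 cells alone (1 E20 cell, 10 E16 cells) gave 2.59 for NANOS3 and 0.56 for CPEB1, both reversed, with -0.67 for DND1 and -0.21 for ELAVL2. Summing DND1 and HARS, an alternative chosen after seeing the data, gave -0.41. A pseudocount of 10 RPM gave -0.52 for NANOS3, -2.67 for CPEB1 and -3.01 for ELAVL2, 0.1 RPM gave -7.62 for ELAVL2 and 0.40 for DAZL, and the log2 ratio gave -0.13 for NANOS3, -2.005 for CPEB1 and -3.08 for ELAVL2. The pseudocount moves values of genes at or near 0 by construction. For the reversals the cause was not tested.

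Leaving out each cell in turn gave 2.03 to 2.49 for NANOS3, 0.54 to 0.92 for DND1, 1.22 to 1.78 for CPEB1, 0.54 to 0.97 for ELAVL2, 4.61 to 5.42 for DAZL and 4.54 to 5.46 for DDX4 in gonad minus embryo. In E20 minus E16 it gave -2.46 to -1.54, -2.07 to -1.55, -5.68 to -4.59 and -6.18 to -5.21 for NANOS3, DND1, CPEB1 and ELAVL2, -0.44 to -0.08 for DDX4 and 0 to 0.13 for DAZL. Scaling by upper quartile shifted the median of all genes to -0.21 against -0.17 for gonad minus embryo, and to -0.24 against -0.12 for E20 minus E16. With 1 read as detected, embryo cells with DDX4 were 7, and 3 after thinning to the lowest depth. At 30 RPM, NANOS3 was detected in 5 gonad and 4 embryo cells. No paired analysis was possible because the labels name no animal and no result came from a test.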

Other observations

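Relatives of CPEB1 and ELAVL2 other than those named by the rule were read after their values were seen. CPEB2 averaged 4.76 ± 11.8 RPM in the gonad and 4.45 ± 11.3 RPM in the embryo, CPEB3 1.21 ± 1.89 RPM in the gonad and 2.96 ± 8.69 RPM in the embryo, and CPEB4 13.4 ± 10.2 RPM in the gonad and 9.78 ± 13.8 RPM in the embryo. ELAVL3 and ELAVL4 encode neuronal Hu proteins. ELAVL3 averaged 0.916 ± 1.296 RPM in the gonad and 1.11 ± 1.48 RPM in the embryo, and ELAVL4 3.38 ± 8.17 RPM in the gonad and 4.13 ± 8.90 RPM in the embryo.

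Among the other RNA-binding proteins, LIN28B, which blocks let-7 microRNAs as LIN28A does, was chosen after its values were seen. It averaged 166 ± 100.4 RPM at E20 and 15.6 ± 33.3 RPM at E16, a difference of 4.198 in mean log2(RPM + 1), with 7 of 8 and 2 of 11 cells at 15 RPM. E20 cells 1 to 7 and E16 cell 8 lay in cluster 2, so stage, label code and cluster largely changed together in this contrast. Of that list 6 of 22 genes were at least 2-fold higher at E20 and 7 lower, beside 13.9% and 18.9% of all measured genes.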
